A study of Homo sapiens with 24 samples.

Results

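The genes described here are CFB and 8 other genes of the complement system: C3, C1R, C1S, C4BPB, CFI, CD46, CD55 and CD59. They are 9 of the 23368 gene symbols in the deposited count table, and all 9 had enough counts to be tested. CFB was chosen on its own values, namely a rise in both drug combinations against control and beyond the mean of the single agents, so its values are given as a description without a p-value. The other 8 were taken by symbol, as complement components and regulators, and were tested across the whole table. The libraries came from AGS, an established human gastric adenocarcinoma line labelled wild type, after 24 h under 6 conditions with 4 biological replicates each. Control cells are labelled as having no treatment, and whether they were given vehicle is not stated. The single agents were PI103 at 0.7 µM, an inhibitor of PI3 kinase and mTOR, PD0325901 at 0.035 µM, an inhibitor of MEK, and (5Z)-7-oxozeaenol at 0.5 µM, an inhibitor of the kinase TAK1 that is shortened here to oxozeaenol. PI103 was also combined with oxozeaenol or with PD0325901, each inhibitor then being at 50% of the concentration used alone. Every group is thus 1 cell line, 1 time and 1 concentration, and the replicate number equals the batch number of the labels.

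Complement is a cascade of plasma and tissue proteins that tags targets for uptake by phagocytes and can pierce their membranes. The classical pathway starts with C1q and its proteases C1r and C1s, while the alternative pathway amplifies the tagging through factor B, the product of CFB, which joins activated C3 to form the alternative C3 convertase. Cells limit the cascade with membrane proteins such as CD46, CD55 and CD59 and with soluble regulators such as factor I and C4b-binding protein. The liver makes most of the circulating components, and epithelial cells are known to make several of them locally.

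Each library held 38.1 M to 84.2 M counts assigned to genes. Values below are counts-per-million (CPM) of the library size scaled by edgeR's TMM method, which corrects for differences in RNA composition. All 6 epithelial markers examined (EPCAM, KRT8, KRT18, KRT19, CDH1 and CLDN4) were above 1 CPM on average, and their summed level was 4620 to 7530 CPM over the libraries. None of 6 hepatocyte markers reached a mean of 1 CPM. Their sum was 0.447 to 1.17 CPM in control, 0.291 to 0.52 with PI103, 1.48 to 2.27 with PD0325901 and 1.28 to 2.08 with oxozeaenol. It was 0.833 to 1.39 CPM with PI103 plus oxozeaenol and 1.13 to 1.43 CPM with PI103 plus PD0325901. Of 6 fibroblast markers COL1A1 and PDGFRA were above 1 CPM; the sum was 61.1 to 83.4 CPM in control, 99.3 to 112 with PI103, 62.4 to 91.1 with PD0325901, 37.6 to 46.6 under oxozeaenol, 43.7 to 53.1 with PI103 plus oxozeaenol and 64.4 to 80.5 with PI103 plus PD0325901. None of 4 endothelial markers reached a mean of 1 CPM (sum 0.103 to 0.452 CPM). Of 7 leukocyte markers CSF1R and AIF1 were above 1 CPM. The leukocyte sum was 2.8 to 3.71 CPM in control, 1.78 to 4.09 with PI103, 8.32 to 13.7 with PD0325901 and 4.65 to 6.56 with oxozeaenol. It was 4.24 to 5.31 CPM with PI103 plus oxozeaenol and 5.53 to 8.85 CPM with PI103 plus PD0325901. No marker of these lists was at 0 in all libraries, and their part in the results was not tested. Bulk libraries cannot tell a change in the number of cells expressing a gene from a change in its RNA per cell.

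In untreated cells, CD55, C4BPB, CD46 and CD59 were far more abundant than the other 5 genes, among which is CFI, itself a soluble inhibitor. Per kilobase of annotated exon, control cells held 351 ± 43.6 CPM of CD55 (SD, n = 4), 142 ± 38.1 of C4BPB, 41.3 ± 4.19 of CD46 and 22.9 ± 0.762 of CD59. On the same per-length scale C1R was at 0.284, CFB at 0.0733, C1S at 0.0184, C3 at 0.0115 and CFI at 0.00221 CPM per kilobase. CFB reached 4.15 ± 1.72 CPM per kilobase (SD, n = 4) with PI103 plus PD0325901, above C1R in control and below each of the 4 abundant regulators in control.

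CFB, the serine protease of the alternative pathway convertase, lies on chromosome 6 in the class III region of the major histocompatibility complex (GRCh38, 31945650 to 31952084, plus strand, GENCODE release 29). In that annotation 45.0% of its exon length is shared on the same strand with AL645922.1, whose symbol does not occur in the count table, and 0.46%, or 23 bases, with C2, which does. Reads from shared exons cannot be assigned with certainty. C2, the neighbour upstream and a close relative in function, had mean levels of 0.145 CPM in control, 0.178 with PI103, 0.31 with PD0325901, 0.182 under oxozeaenol, 0.232 with PI103 plus oxozeaenol and 0.415 with PI103 plus PD0325901. It rose in the last of these by a log2 fold change of 1.48 (adjusted p = 0.00615, edgeR), the group in which CFB was highest. Without replicate 2 of that combination the value was 1.06 (adjusted p = 0.0508). Its part in the CFB counts was not tested.

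The 250 bases before the start of CFB are printed with those of CFI and CD55, because CFB and CFI had the largest rises over control of the 9 genes and CD55 was lower than control under every treatment. They are from RefSeq (GRCh38.p14), in the direction of the gene, and 7 of the 9 genes had an entry. The windows are chr6:31945845-31946094 on the plus strand, chr4:109802000-109802249 on the minus strand and chr1:207321428-207321677 on the plus strand. RefSeq starts differ from the ends of the GENCODE spans given for these genes. The CFB and CD55 windows lie inside those spans, and the CFI window lies partly inside its own. Capitals mark matches to the motifs searched.
CFB: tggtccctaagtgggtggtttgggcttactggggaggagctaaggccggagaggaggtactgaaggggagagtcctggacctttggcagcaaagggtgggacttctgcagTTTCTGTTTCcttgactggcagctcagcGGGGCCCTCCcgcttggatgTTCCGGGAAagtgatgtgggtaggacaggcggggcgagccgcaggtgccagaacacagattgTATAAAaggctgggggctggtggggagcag
CFI: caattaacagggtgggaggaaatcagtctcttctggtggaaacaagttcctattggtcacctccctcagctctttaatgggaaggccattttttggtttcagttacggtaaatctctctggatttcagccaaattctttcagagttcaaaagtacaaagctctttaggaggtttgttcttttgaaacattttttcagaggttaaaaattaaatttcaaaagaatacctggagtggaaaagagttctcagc
CD55: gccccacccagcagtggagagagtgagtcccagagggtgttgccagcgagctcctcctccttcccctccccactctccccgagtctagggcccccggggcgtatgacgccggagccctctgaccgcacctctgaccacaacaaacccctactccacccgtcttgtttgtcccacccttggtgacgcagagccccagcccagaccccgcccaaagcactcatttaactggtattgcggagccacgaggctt
The motifs were the STAT site TTCNNNGAA, the interferon-response element (GAAA, any 2 bases, GAAA), the kB consensus and the AP-1 site TGANTCA, each on both strands, and the TATA box TATAAA on the gene's own strand. The matches in the CFB window do not overlap one another. Of 35097 RefSeq windows of the same length, 6.56% held the STAT site, 3.02% the interferon-response element, 9.95% the kB consensus, 6.57% the AP-1 site and 6.8% the TATA box. The CFB window holds TTTCTGTTTC, the interferon-response letters on the reverse strand, at -140 to -131 from the start, and the kB match GGGGCCCTCC at -112 to -103. It also holds the STAT letters TTCCGGGAA at -92 to -84 and a TATA box at -30 to -25. The CFI and CD55 windows hold none of these letters, and neither does that of CD46. A STAT match was also found in 1 window each of C1R and C4BPB and, as 1 site that lies in 2 overlapping windows, in CD59, which also had 2 AP-1 matches in another window. These are matches of letters in 1 window per start site, and the data include no measurement of binding there.

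CFB was scarce in untreated cells and more abundant in every treated library. Control libraries held 0.356, 0.279, 0.489 and 0.341 CPM in batches 1 to 4. PI103 gave 3.00, 1.82, 1.85 and 2.10 CPM, and oxozeaenol gave 2.87, 2.72, 3.21 and 3.05 CPM. All 8 of those libraries lay above all controls, and these 2 treatments overlapped each other. PD0325901 alone gave 6.86, 10.3, 6.42 and 5.23 CPM. PI103 plus oxozeaenol gave 11.2, 7.46, 9.22 and 7.40 CPM, which overlapped PD0325901 alone and lay above both of its own single agents. PI103 plus PD0325901 gave 18.8, 33.3, 16.1 and 14.7 CPM, above every library of every other group. The group means were 0.366 ± 0.0881 CPM in control, 2.19 ± 0.551 with PI103, 2.96 ± 0.211 under oxozeaenol, 7.20 ± 2.17 under PD0325901, 8.83 ± 1.81 with PI103 plus oxozeaenol and 20.7 ± 8.57 with PI103 plus PD0325901 (SD, n = 4 each).

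**Figure D1:**
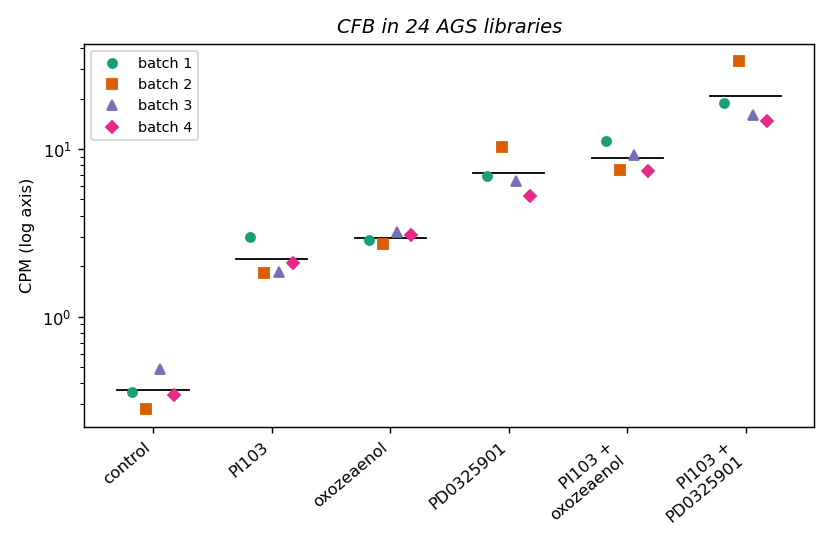
CFB level in each of the 24 libraries (CPM, log axis), by group, with points for the 4 batches and a line at the group mean. The 4 libraries of PI103 plus PD0325901 sit between 14.7 and 33.3 CPM, above all others, and the 4 controls sit below 0.489 CPM or at it.

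In the model over all libraries, CFB was 5.86 times its control level with PI103 (log2 fold change 2.55, SE 0.299), 7.88 times with oxozeaenol (2.98, SE 0.296) and 19.2 times with PD0325901 (4.26, SE 0.29). It was 23.6 times the control level with PI103 plus oxozeaenol (4.56, SE 0.291) and 55.3 times with PI103 plus PD0325901 (5.79, SE 0.296). These 5 values share the same 4 control libraries. PI103 plus oxozeaenol exceeded PI103 by 2.01 (SE 0.24) and oxozeaenol by 1.58 (SE 0.236) on the log2 scale. PI103 plus PD0325901 exceeded PI103 by 3.24 (SE 0.246), PD0325901 by 1.53 (SE 0.225) and the other combination by 1.23 (SE 0.222). With libraries left out, these margins of PI103 plus PD0325901 ran from 2.83 to 3.42, from 1.20 to 1.74 and from 0.83 to 1.38 in that order. PD0325901 exceeded oxozeaenol by 1.28 (SE 0.236), and the difference of oxozeaenol minus PI103 was 0.43 with a 95% interval of -0.082 to 0.933.

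Since each inhibitor was at 50% in the combinations, the reference for a combination is the mean of the log2 changes of its single agents, which takes log2 effects to scale with concentration. CFB exceeded that mean by 1.79 (SE 0.193) with PI103 plus oxozeaenol and by 2.38 (SE 0.187) with PI103 plus PD0325901, the values on which it was chosen. On the linear scale the rise over control was 1.83 CPM with PI103 and 2.60 CPM with oxozeaenol, a sum of 4.42 CPM, against 8.46 CPM with the combination. With PD0325901 alone the rise was 6.83 CPM, the sum with PI103 was 8.66 CPM and the combination gave 20.4 CPM. On the log2 scale the combinations stood below the sums of the full-concentration single agents, by -0.97 and -1.02. The sums on both scales are of single agents at full concentration, whereas the combinations held each inhibitor at 50%. Against these sums the combinations lay above on the linear scale and below on the log2 scale.

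C3, the central component that factor B binds, was close to the detection limit in control, with 3, 5, 10 and 9 counts, or 0.0486, 0.0931, 0.122 and 0.118 CPM. Oxozeaenol gave 0.678, 0.589, 0.568 and 0.653 CPM, and PD0325901 gave 0.319, 0.601, 0.516 and 0.295 CPM. Both groups lay above all controls. PI103 gave 0.200, 0.0867, 0.0514 and 0.194 CPM and PI103 plus oxozeaenol 0.0902, 0.117, 0.213 and 0.322 CPM, both overlapping control. PI103 plus PD0325901 gave 0.313, 0.286, 0.246 and 0.263 CPM, above all controls in a narrow band.

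C3 rose with oxozeaenol by a log2 fold change of 2.65 (SE 0.393, adjusted p = 3.6e-06, edgeR), with PD0325901 by 2.13 (SE 0.399, adjusted p = 5.71e-05) and with PI103 plus PD0325901 by 1.49 (SE 0.414, adjusted p = 0.00274). The change was 0.46 with PI103 (SE 0.455, adjusted p = 0.417) and 0.87 with PI103 plus oxozeaenol (SE 0.439, adjusted p = 0.0956), neither past the threshold of 0.05. Without the replicate 1 library of PI103 plus oxozeaenol the latter was 1.12 (adjusted p = 0.0386). In the direct comparison C3 was lower with PI103 plus oxozeaenol than with oxozeaenol alone by a log2 difference of -1.78 (SE 0.369, adjusted p = 0.00187), the opposite direction to that of CFB in the same comparison. Between PI103 plus PD0325901 and PD0325901 alone the C3 difference was -0.64 (95% interval -1.36 to 0.085, adjusted p = 0.211). C3 (chromosome 19, 6677704 to 6730562, minus strand) shares no annotated exon with another gene.

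C1R encodes the protease of the first complement complex that activates C1s, and it held more counts than C1S or CFI in every group. Control libraries held 1.52, 1.58, 1.86 and 1.73 CPM. PI103 gave 2.61, 3.19, 2.19 and 2.17 CPM, all above control. PD0325901 gave 4.57, 7.38, 5.38 and 3.72 CPM and oxozeaenol 5.34, 5.53, 4.29 and 5.28 CPM. The combination with oxozeaenol gave 4.76, 4.74, 4.95 and 4.39 CPM and PI103 plus PD0325901 5.48, 6.15, 4.37 and 4.00 CPM. The libraries thus fell into 3 levels without overlap, with control lowest, PI103 next and the other 4 treatments together above.

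C1R rose against control in all 5 treatments, by 0.60 with PI103 on the log2 scale (SE 0.183, adjusted p = 0.0079) and by 1.65 with PD0325901 (SE 0.18, adjusted p = 2.1e-08). With oxozeaenol the change was 1.61 (SE 0.181, adjusted p = 5.44e-08), with PI103 plus oxozeaenol 1.49 (SE 0.18, adjusted p = 1.31e-07) and with PI103 plus PD0325901 1.58 (SE 0.18, adjusted p = 2.89e-08). Each of those 4 also exceeded PI103, by 0.89 to 1.05 on the log2 scale (adjusted p from 2.52e-05 to 0.000643). Between PI103 plus PD0325901 and PD0325901 alone the C1R difference was -0.07 (95% interval -0.423 to 0.279, adjusted p = 0.802). PI103 plus PD0325901 was above the mean of its agents by 0.45 (adjusted p = 0.0284), a call that was lost in 6 of 13 fits that left out libraries and was 0.34 (adjusted p = 0.167) without replicate 2 of that combination. C1R (chromosome 12, 7080199 to 7092607, minus strand) shares 11.4% of its exon length on the same strand with C1RL, a related protease gene that is in the table. Mean C1RL was 10.75 CPM in control, 15.5 with PI103, 21.3 with PD0325901 and 14.8 with oxozeaenol. In the combinations it was 19.5 CPM with oxozeaenol and 26.6 CPM with PD0325901. The part of C1RL in the C1R counts was not tested.

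C1S, which encodes the protease that cleaves C4 and C2, was at 5 to 13 counts per control library, or 0.146, 0.0931, 0.159 and 0.0787 CPM. PI103 libraries held 0.0615, 0.0694, 0.0514 and 0.0808 CPM, from 3 to 5 counts each. PD0325901 gave 0.487, 1.10, 0.631 and 0.233 CPM and oxozeaenol 0.678, 0.315, 0.227 and 0.476 CPM. Both lay above all libraries of control and PI103, with a wide spread within each group. PI103 plus oxozeaenol gave 0.271, 0.184, 0.356 and 0.284 CPM and PI103 plus PD0325901 0.263, 0.874, 0.477 and 0.182 CPM, again above control in every library.

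C1S rose by 2.33 with PD0325901 (SE 0.476, adjusted p = 0.00016), by 1.83 with oxozeaenol (SE 0.491, adjusted p = 0.00303) and by 1.89 with PI103 plus PD0325901 (SE 0.484, adjusted p = 0.00138), as log2 fold changes against control. With PI103 plus oxozeaenol the value was 1.17 (SE 0.508, adjusted p = 0.0525), and with the batch as a replicate block it was 1.18 (adjusted p = 0.0463), just past the threshold. With PI103 alone it was -0.85 (SE 0.625, adjusted p = 0.267). Against PI103, C1S was higher with PD0325901 (adjusted p = 2.49e-05), oxozeaenol (adjusted p = 0.000337), PI103 plus oxozeaenol (adjusted p = 0.0136) and PI103 plus PD0325901 (adjusted p = 0.000289). Between PI103 plus PD0325901 and PD0325901 alone the C1S difference was -0.44 (95% interval -1.29 to 0.408, adjusted p = 0.487). The PI103 libraries held 3 to 5 counts each, which lowers the mean of the single agents. The excess of C1S over that mean in PI103 plus PD0325901 was 1.15 (adjusted p = 0.0415). That call was lost in 9 of 13 fits that left out libraries and when only the groups of the contrast were fitted (adjusted p = 0.084). The value was lowest, at 0.62 (adjusted p = 0.346), without replicate 2 of that combination, the library at 0.874 CPM. C1S (chromosome 12, 6988259 to 7071032, plus strand) shares 3.54% of its exon length with EMG1, which is also in the table.

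CFI encodes factor I, the soluble protease that cuts activated C3 and C4 in the presence of a cofactor and so ends their activity. It was at the limit of counting in 2 groups, with 0, 1, 2 and 0 counts in control and 1, 2, 0 and 1 counts with PI103. PD0325901 libraries held 27, 18, 22 and 19 counts, oxozeaenol 35, 22, 3 and 27, PI103 plus oxozeaenol 31, 44, 25 and 21, and PI103 plus PD0325901 40, 51, 56 and 35. Apart from the third oxozeaenol library, at 3 counts or 0.0851 CPM, every library of these 4 groups held at least 18 counts. In CPM, PI103 plus PD0325901 gave 0.500, 0.857, 0.810 and 0.707, against 0.506, 0.309, 0.315 and 0.295 with PD0325901.

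**Figure D2:**
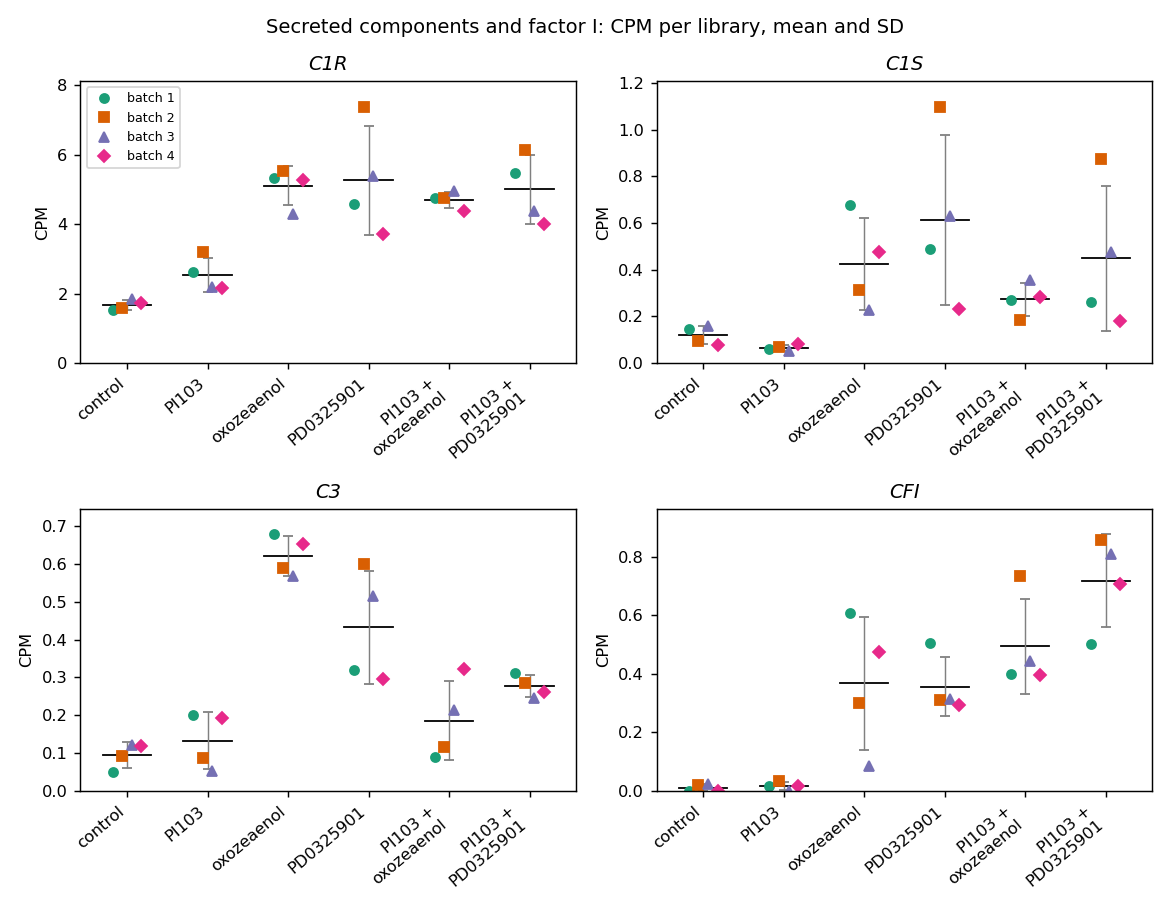
Levels of the secreted components C3, C1R, C1S and CFI in each library (CPM, linear axes from 0), by group; points are the 4 batches, lines the group means and grey bars the SD. C1R in PI103 sits between control and the other 4 treatments, and CFI is at or near 0 in control and PI103.

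With 3 counts in the 4 control libraries together, a fold change of CFI has wide limits, so the ratio of pooled counts per library size is given with its exact 95% interval, which covers counting error only. The ratio to control was 1.5 (0.254 to 10.2) with PI103 and 31.9 (10.6 to 158) with PD0325901. It was 35.7 (11.8 to 176) with oxozeaenol, 44.8 (15 to 220) with PI103 plus oxozeaenol and 64.3 (21.7 to 315) with PI103 plus PD0325901. The edgeR test called CFI higher than control in the latter 4 groups (adjusted p = 6.52e-07, 7.01e-07, 9.92e-08 and 6.05e-09 in that order) and not with PI103 (adjusted p = 0.715). The same 4 groups exceeded PI103 (adjusted p from 1e-07 to 4.17e-06), and both combinations exceeded the mean of their agents (adjusted p = 0.000352 with oxozeaenol and 3.72e-06 with PD0325901). PI103 alone was at the limit of counting, which lowers that mean. PI103 plus oxozeaenol against oxozeaenol alone gave a log2 difference of 0.38 (95% interval -0.409 to 1.16, adjusted p = 0.551). PI103 plus PD0325901 against PD0325901 gave a log2 difference of 1.01 (95% interval 0.248 to 1.78, adjusted p = 0.0585), which with the replicate block was 1.02 (adjusted p = 0.0433) and without replicate 1 of PD0325901 was 1.20 (adjusted p = 0.0495). CFI (chromosome 4, 109740694 to 109802179, minus strand) shares 32.0% of its exon length on the same strand with AC126283.2, a symbol that is not in the table.

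CD55, or decay-accelerating factor, takes apart the C3 convertases on the cell's own surface, and it was the most abundant of the 9 genes. Control libraries held 1805, 2250, 1903 and 2331 CPM. PI103 gave 1039, 882, 922 and 885 CPM, PD0325901 1179, 943, 1123 and 1053 CPM and oxozeaenol 855, 1066, 842 and 847 CPM. The combination of PI103 with oxozeaenol gave 1169, 1010, 1032 and 995 CPM and PI103 plus PD0325901 1320, 1358, 1222 and 1332 CPM. All 20 treated libraries lay below all 4 controls, and the 4 of PI103 plus PD0325901 lay above those of each other treatment.

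CD55 fell by 1.15 with PI103 on the log2 scale (SE 0.102, adjusted p = 8.62e-10), by 0.95 with PD0325901 (SE 0.101, adjusted p = 1.41e-08) and by 1.20 with oxozeaenol (SE 0.102, adjusted p = 5.37e-10). It fell by 0.98 with PI103 plus oxozeaenol (SE 0.101, adjusted p = 1.02e-08) and by 0.66 with PI103 plus PD0325901 (SE 0.101, adjusted p = 2.61e-06). PI103 plus PD0325901 thus had the smallest fall, above PI103 by 0.49 (adjusted p = 0.000428) and above the mean of its agents by 0.39 (adjusted p = 0.00238). Its margins over PD0325901, 0.28 (adjusted p = 0.0498), and over the other combination, 0.31 (adjusted p = 0.0193), were less secure. The former was lost in each of 9 fits that left out libraries, with adjusted p from 0.0526 to 0.19, and the latter in 5 of 9, with adjusted p up to 0.0905. The CD55 difference of PD0325901 minus oxozeaenol was 0.25 (adjusted p = 0.0613), past the threshold with the replicate block (0.25, adjusted p = 0.0456) and without replicate 2 of oxozeaenol (0.34, adjusted p = 0.0187). CD55 lies on chromosome 1 (207321376 to 207386804, plus strand) and shares no annotated exon with another gene.

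CD59, which blocks the assembly of the membrane attack complex, went the other way. Control libraries held 234, 233, 234 and 249 CPM. PI103 gave 345, 307, 337 and 320 CPM, PD0325901 278, 322, 346 and 330 CPM and oxozeaenol 287, 327, 350 and 333 CPM. With PI103 plus oxozeaenol the values were 332, 308, 333 and 339 CPM and PI103 plus PD0325901 304, 419, 332 and 352 CPM. All treated libraries were above all controls, and the 5 treatments overlapped one another.

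CD59 rose in all 5 treatments, with log2 fold changes of 0.46 with PI103 (SE 0.0896, adjusted p = 0.000111), 0.43 under PD0325901 (adjusted p = 0.000211), 0.45 under oxozeaenol (adjusted p = 0.000166), 0.47 with PI103 plus oxozeaenol (adjusted p = 8.98e-05) and 0.57 with PI103 plus PD0325901 (adjusted p = 4.68e-06). The 95% intervals of these 5 values overlapped one another. The ratio of CD55 to CD59 counts within a library, which no scaling of libraries can alter, was 8.72 ± 0.943 in control (SD, n = 4; 7.7 to 9.67). It was 2.85 ± 0.126 with PI103, 3.4 ± 0.573 with PD0325901 and 2.8 ± 0.396 with oxozeaenol. In the combinations it was 3.21 ± 0.254 with oxozeaenol and 3.76 ± 0.451 with PD0325901, so that the highest treated library, at 4.34, was below the lowest control. CD59 (chromosome 11, 33703010 to 33736491, minus strand) shares 6.07% of its exon length with AL049629.2, which is not in the table.

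CD46, or membrane cofactor protein, helps factor I to cut C3 and C4 fragments on the cell surface. Control libraries held 323, 410, 350 and 354 CPM and oxozeaenol libraries 441, 476, 564 and 598 CPM, without overlap. PI103 plus oxozeaenol gave 416, 424, 417 and 522 CPM, also above all controls. PI103 gave 368, 323, 360 and 394 CPM, PD0325901 342, 279, 335 and 411 CPM and PI103 plus PD0325901 326, 335, 377 and 451 CPM, all overlapping control.

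CD46 rose with oxozeaenol by 0.53 on the log2 scale (SE 0.123, adjusted p = 0.000751) and with PI103 plus oxozeaenol by 0.31 (SE 0.122, adjusted p = 0.035). The latter was not called in 4 of 9 fits that left out libraries, being 0.22 (adjusted p = 0.145) without replicate 4 of the combination, and 0.26 to 0.30 (adjusted p from 0.0564 to 0.101) without control replicate 1, 3 or 4. The change was 0.01 with PI103, -0.07 with PD0325901 and 0.05 with PI103 plus PD0325901 (adjusted p = 0.958, 0.635 and 0.729), and the 95% intervals reached from -0.323 to 0.303 over these 3 treatments. In direct comparisons CD46 was higher with oxozeaenol than with PI103 by 0.52 (adjusted p = 0.00124), and lower with PD0325901 than with oxozeaenol by -0.60 (adjusted p = 0.000766). With the replicate block, CD46 was also higher with PI103 plus oxozeaenol than with PI103 (0.29, adjusted p = 0.0229, against 0.0913 without the block) and lower with PI103 plus PD0325901 than with PI103 plus oxozeaenol (-0.26, adjusted p = 0.0311, against 0.116). CD46 lies on chromosome 1 (207752057 to 207795513, plus strand), near CD55 and C4BPB, and shares no exon.

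**Figure D3:**
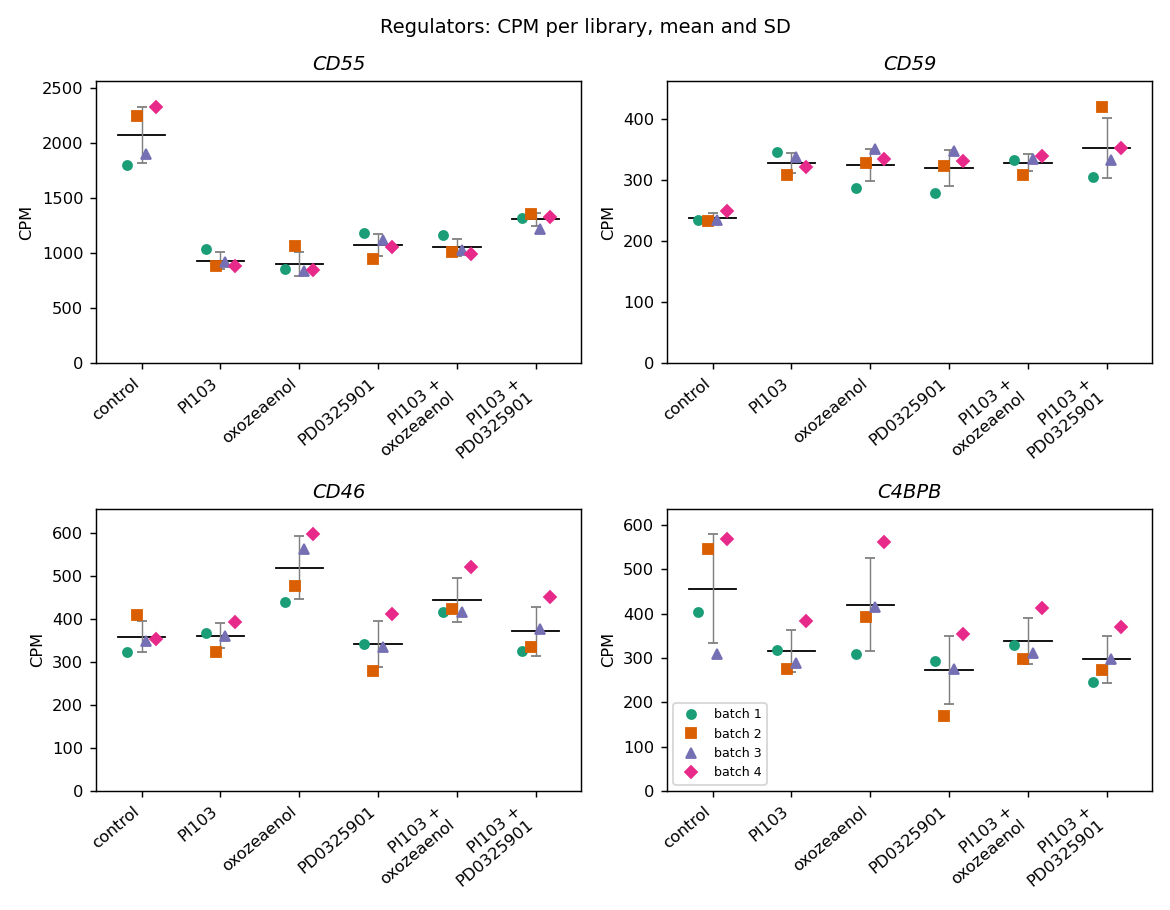
Levels of the regulators CD55, CD59, CD46 and C4BPB in each library (CPM, linear axes from 0), by group; points are the 4 batches, lines the group means and grey bars the SD. For CD55 all treated libraries lie below 1358 CPM or at it while the lowest control is at 1805 CPM, and for CD59 all lie above the controls.

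C4BPB encodes the beta chain of C4b-binding protein, a soluble regulator of the classical pathway. Its control libraries were spread, at 403, 546, 308 and 568 CPM. PI103 gave 319, 275, 288 and 382 CPM, PD0325901 293, 169, 275 and 355 CPM and oxozeaenol 310, 393, 415 and 562 CPM. PI103 plus oxozeaenol gave 329, 298, 310 and 412 CPM and PI103 plus PD0325901 245, 273, 298 and 371 CPM. Every treated group overlapped control.

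C4BPB fell with PD0325901 by 0.74 on the log2 scale (adjusted p = 0.00395), with PI103 plus PD0325901 by 0.62 (adjusted p = 0.0117) and with PI103 by 0.53 (adjusted p = 0.0365), while it was -0.12 with oxozeaenol (95% interval -0.547 to 0.309, adjusted p = 0.653). The PI103 call was lost in 6 of 9 fits that left out libraries (adjusted p up to 0.204), that of PI103 plus PD0325901 without control replicate 4 (-0.50, adjusted p = 0.0537) and, with replicate 2 left out of all groups, that of PD0325901 as well (-0.47, adjusted p = 0.102). With PI103 plus oxozeaenol the change was -0.43 (adjusted p = 0.0796), and with the replicate block it passed the threshold at -0.43 (adjusted p = 0.0164). C4BPB was lower with PD0325901 than with oxozeaenol by -0.62 (adjusted p = 0.0285), a call lost in 5 of 9 fits that left out libraries, and the difference of oxozeaenol minus PI103 was 0.41 (adjusted p = 0.115) or, with the replicate block, 0.40 (adjusted p = 0.033). The alpha chain gene C4BPA, whose product makes up most of the protein, was nearly absent, at 0.139 ± 0.0371 CPM per kilobase in control (SD, n = 4) against 142 for C4BPB. C4BPB lies on chromosome 1 (207088842 to 207099993, plus strand) and shares no exon.

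Genes changed widely over the whole table, so the share of the 13947 tested genes called in the same direction stands beside each count of the 8 tested complement genes. With PI103, 2 rose (26.2% of all genes) and 2 fell (25.2%). With PD0325901, 5 rose (28.7%) and 2 fell (29.9%), and with oxozeaenol 6 rose (25.7%) and 1 fell (26.1%). In the combinations, 4 rose (27.7%) and 1 fell (27.9%) with oxozeaenol as the partner, and 5 rose (32.2%) and 2 fell (32.6%) with PD0325901. With PI103 both counts were near the background. In the other 4 treatments more of the 8 rose than that background gives, and falls were no more frequent than it. CFI and, outside PI103 plus oxozeaenol, C3 and C1S are among those rises. Control libraries held at most 10 counts of C3, 13 of C1S and 2 of CFI. These genes thus passed the count filter through groups in which they were higher, which favours rises. The counts and medians are therefore a description of the 8 genes and no test of them as a set. The median log2 fold change of the 8 genes was 0.233 for PI103, 1.04 for PD0325901, 1.07 for oxozeaenol, 0.667 with PI103 plus oxozeaenol and 1.03 with PI103 plus PD0325901, where that of all tested genes ran from -0.024 to 0.022.

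**Figure D4:**
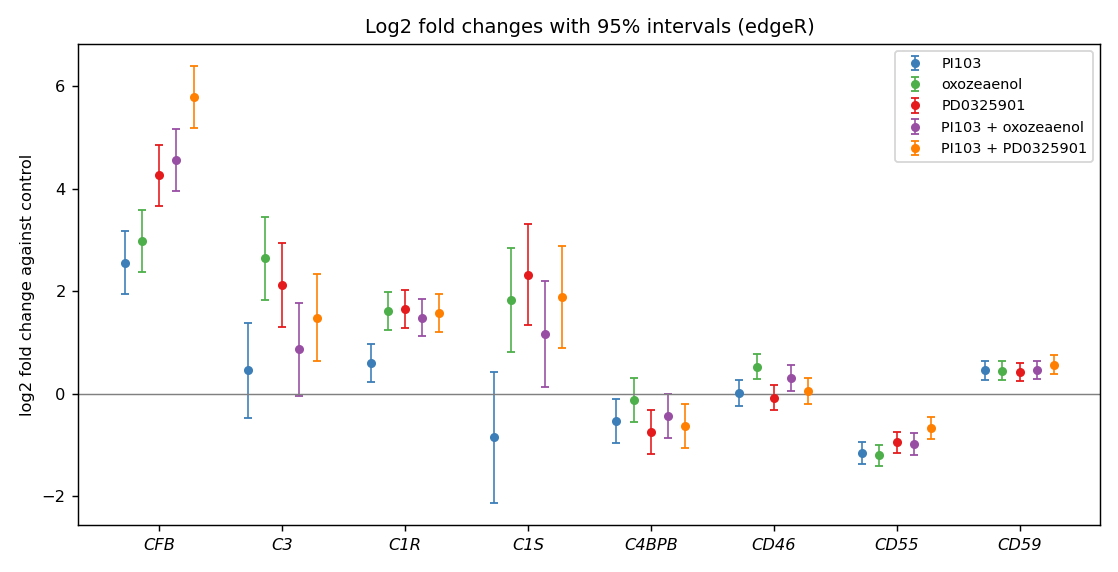
Log2 fold change against control of CFB, C3, C1R, C1S, C4BPB, CD46, CD55 and CD59 in the 5 treatments, with 95% intervals; CFI is left out because its control libraries held 3 counts in all. CD55 lies below 0 and CD59 above it in all 5 treatments, while C3 and C1S differ between PI103 and the other single agents.

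Over the whole table, 6208 of the 13947 genes differed between PD0325901 and PI103, 6014 between oxozeaenol and PI103 and 3976 between PD0325901 and oxozeaenol. Of the 8 tested genes, 4, 5 and 2 did in turn. With PD0325901, C3, C1R, C1S and CFI, 4 of the 8, were higher than with PI103 (22.9% of all genes were). With oxozeaenol the same 4 and CD46 were higher, 5 of the 8 (22.5%). PI103 libraries held at most 13 counts of C3, 5 of C1S and 2 of CFI. The count filter thus favoured rises over PI103 as well, also for the combinations. CD46 and C4BPB, 2 of the 8, were lower with PD0325901 than with oxozeaenol (13.4%).

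Over all genes, PI103 plus oxozeaenol differed from PI103 in 2553 and from oxozeaenol in 2074, and PI103 plus PD0325901 differed from PI103 in 5391 and from PD0325901 in 2521. PI103 plus oxozeaenol was higher than PI103 in C1R, C1S and CFI, 3 of the 8 (9.39% of all genes), and lower than oxozeaenol in C3 alone (7.28%). PI103 plus PD0325901 was higher than PI103 in C3, C1R, C1S, CFI and CD55, 5 of the 8 (18.8%). Of these, C3, at a log2 difference of 1.03 (adjusted p = 0.0435), was lost in 7 of 9 fits that left out libraries, with adjusted p up to 0.208. The same combination was higher than PD0325901 in CD55 alone (8.06%) and higher than PI103 plus oxozeaenol in CD55 alone (14.3%). Against the mean of the single agents, CFI was higher with PI103 plus oxozeaenol (2.88%), and C1R, C1S, CFI and CD55 with PI103 plus PD0325901 (10.8%). CFI and C1S were near the limit of counting with PI103 alone, which lowers that mean.

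A further 49 complement genes, listed by function, were all in the table, but only 15 had enough counts to be tested and 11 were at 0 in all 24 libraries. Those at 0 were C1QA, C1QB, C4A, C4B, C8A, FCN1, FCN2, CFHR2, CFHR5, CPN1 and the C5a receptor gene GPR77; C4A and C4B are near-identical copies whose reads cannot be placed uniquely. Of the 15, 7 rose and 1 fell with PI103, 6 rose and 2 fell with PD0325901, 6 rose and 1 fell with oxozeaenol, and 8 rose and 1 fell in each combination. Over all tested genes the shares were 26.2% higher and 25.2% lower with PI103, 28.7% and 29.9% with PD0325901, 25.7% and 26.1% with oxozeaenol, 27.7% and 27.9% with PI103 plus oxozeaenol, and 32.2% and 32.6% with PI103 plus PD0325901. The median log2 fold change of the 15 ran from 0.363 with PD0325901 to 0.757 with PI103 plus oxozeaenol, where that of all tested genes was -0.024 and 0.018. Some of the 15 were scarce in control. C2 held 5 to 15 counts per control library, and the control means of CR1 and C5AR1 were 0.12 and 0.128 CPM. For such genes the count filter can favour rises, so these counts and medians are a description and no test of the 15 as a set.

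SERPING1, which encodes the inhibitor of C1r and C1s, rose in all 5 treatments. Its mean was 0.413 ± 0.190 CPM in control (SD, n = 4) and 3.43 ± 1.10 CPM with PI103 plus PD0325901, a log2 fold change of 3.06 (adjusted p = 5.31e-09). With PI103 it was 1.89, under PD0325901 2.21, under oxozeaenol 1.38 and with PI103 plus oxozeaenol 2.63 (adjusted p = 2.17e-05, 1.54e-06, 0.00103 and 1.21e-07). The order of its group means, with the combinations highest, was that of CFB except for PI103 and oxozeaenol. C5, the start of the terminal pathway, rose by 0.95 with PI103, 1.15 under PD0325901, 1.39 under oxozeaenol, 1.54 with PI103 plus oxozeaenol and 1.77 with PI103 plus PD0325901 on the log2 scale (adjusted p from 1.83e-07 to 0.00112). COLEC10, a collectin of the lectin pathway, fell by 2.10 under PD0325901, 2.55 under oxozeaenol, 2.04 with PI103 plus oxozeaenol and 2.15 with PI103 plus PD0325901 on the log2 scale (adjusted p from 8.92e-11 to 1.13e-09). Its mean was 5.07 CPM with PI103 and 5.01 CPM in control. With PD0325901, SUSD4, a membrane complement inhibitor, rose by 1.16 (adjusted p = 5.05e-06), as it did with oxozeaenol by 0.75 (adjusted p = 0.00121), and VTN, the terminal-pathway inhibitor vitronectin, fell by 0.70 (adjusted p = 0.0196), a call lost without control replicate 4 (-0.56, adjusted p = 0.0792) or PD0325901 replicate 2 (-0.50, adjusted p = 0.12). VTN rose with PI103 plus oxozeaenol by 1.17 (adjusted p = 0.000404), from a mean of 89.3 ± 21.4 CPM in control to 200.9 ± 36.8 CPM (SD, n = 4 each).

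Interferon-gamma, interleukin 6 and tumour necrosis factor are known to induce CFB and C3 through STAT, IRF, C/EBP and NF-kB factors, so 22 genes of these receptors and factors were examined, all of them tested. With PI103, 8 rose and 8 fell, with PD0325901 13 rose and 3 fell, and with oxozeaenol 8 rose and 7 fell. With PI103 plus oxozeaenol 10 rose and 6 fell, and with PI103 plus PD0325901 12 rose and 3 fell. Over all tested genes, 26.2% rose and 25.2% fell with PI103, 28.7% and 29.9% with PD0325901, and 25.7% and 26.1% with oxozeaenol. In the combinations the shares were 27.7% and 27.9% with oxozeaenol as the partner and 32.2% and 32.6% with PD0325901. IRF2, an interferon regulatory factor, rose by 1.11 with PI103, 1.51 under PD0325901, 0.87 under oxozeaenol, 1.10 with PI103 plus oxozeaenol and 1.61 with PI103 plus PD0325901 on the log2 scale (adjusted p from 1.87e-11 to 1.51e-06). STAT2, which carries type I interferon signals, rose in all 5 treatments, from 26.8 CPM in control to 54.3 with PI103, 57.6 under PD0325901, 42.2 under oxozeaenol, 49.9 with PI103 plus oxozeaenol and 75.1 with PI103 plus PD0325901 (adjusted p from 2.7e-09 to 0.000516). IFNAR2, a chain of the receptor for those interferons, also rose in all 5, from 13.8 CPM in control to 17.7 CPM with PI103 and to between 24.6 and 29.1 CPM in the other 4 (adjusted p from 1.78e-10 to 0.0016). The mean of IFNAR1, the other chain, was 79.7 CPM in control and 71.9 to 83.1 CPM in the treatments. Means of the receptor genes IFNGR1 and IL6ST were 117.8 and 143.8 CPM in control. They were lower with PI103, at 79.6 and 91.8 CPM, and higher under PD0325901, at 150.4 and 200.8 CPM.

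CEBPB and CEBPD, related acute-phase factors, moved in opposite directions under PD0325901, oxozeaenol and both combinations. CEBPB fell from 160.8 ± 37.6 CPM in control (SD, n = 4) to 16.4 CPM with PI103, 36.0 under PD0325901, 31.2 under oxozeaenol, 15.9 with PI103 plus oxozeaenol and 13.9 with PI103 plus PD0325901, with adjusted p from 3.43e-09 to 2.73e-06. CEBPD gained 1.33 under PD0325901, 1.15 under oxozeaenol, 1.40 with PI103 plus oxozeaenol and 2.08 with PI103 plus PD0325901 on the log2 scale (adjusted p from 2.79e-09 to 5.37e-05). With PI103 alone CEBPD fell by 0.58 (adjusted p = 0.0308), a call lost in 5 of 9 fits that left out libraries (adjusted p up to 0.0826) and with library totals (adjusted p = 0.0694). NFKB2, an NF-kB subunit, fell by 0.99 with PI103, 0.71 under PD0325901, 1.23 under oxozeaenol, 1.28 with PI103 plus oxozeaenol and 0.90 with PI103 plus PD0325901 (adjusted p from 7.78e-10 to 6.56e-06). The other NF-kB subunit genes did not all follow NFKB2. Mean RELB was 6.024 CPM in control, and higher under PD0325901 at 10.82 and with PI103 plus PD0325901 at 8.621. It was lower with PI103 at 3.179, oxozeaenol at 4.018 and PI103 plus oxozeaenol at 3.695 CPM. Mean RELA was 26.71 CPM in control and 21.91 to 28.02 CPM in the treatments. Mean NFKB1 was 64.57 CPM in control and at most 45.67 CPM in the treatments. RNA levels of a factor do not measure its activity.

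The 5 genes whose log2 CPM followed CFB most closely over the 24 libraries, of 11624 compared, were CTSO and SEMA3F (Pearson r 0.977 each), MEIS3 (0.975), TUBA1A (0.969) and DAB2 (0.969). These correlations are mostly between groups: after the group means were removed they were 0.647, 0.634, 0.54, 0.417 and 0.543. Among the complement genes, r with CFB was 0.843 for C1R, 0.839 for CFI, 0.791 for CD59, 0.611 for C1S and 0.452 for C3. It was 0.0241 for CD46, -0.477 for CD55 and -0.558 for C4BPB. Within groups, C1S (0.637) and C1R (0.607) still varied with CFB across batches, whereas CFI (-0.0144) did not, and C1R and C1S varied with each other (0.813 over all libraries, 0.662 within groups). The 24 points share 6 treatments and 4 batches, so these correlations are a description.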

How the data were processed

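RNA sequencing libraries were made from 0.8 µg of total RNA with a stranded mRNA kit, per the labels' protocols. The deposited table holds raw read counts per gene symbol for 24 libraries, with 4.24% to 8.57% of reads per library tallied by the authors as having no feature, 1.57% to 2.01% as ambiguous and 4.64% to 6.06% as not uniquely aligned. Those tallies were left out. The build is GRCh38 per the submitters' processing notes; the aligner, the counting program, its annotation and its strand setting are not given in the sources used here, so overlapping genes are uncertain. Groups were taken from the sample titles.

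In edgeR 4.0.16 (R 4.3.3), filterByExpr kept 13947 genes, TMM set the library sizes, and a robust quasi-likelihood model with 1 coefficient per group took in all 24 libraries (common biological coefficient of variation 0.131). Its two-sided F test was run for 15 contrasts, Benjamini-Hochberg adjustment was over all tested genes, and an adjusted p below 0.05 made a call. Unless another fit is named, this test gave the adjusted p. The SE of a log2 fold change is its size over the root of F. The steps were tested on simulated data. Log2 CPM for correlations used a prior count of 2 and genes with a mean of at least 1 CPM. Exons and spans are from GENCODE release 29.

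The genes and lists were chosen with earlier results of these data known. Besides the 9 genes, those named from the 2 lists are up to 2 rises and 2 falls per treatment among called genes with a mean of at least 1 CPM. The 5 genes most like CFB were added. C2, C4BPA, C1RL, IFNAR1, IFNGR1, IL6ST, NFKB1, RELA, RELB and the genes at 0 were named after their values were seen. So were the values of C5, VTN, SUSD4, IRF2, STAT2, IFNAR2 and CEBPD in treatments outside the rule of rises and falls.

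Libraries are paired by the labels' batch number. Deviations from group means had a mean correlation of 0.12 over 60 pairs of libraries with the same number (28 pairs above 0.1) and -0.039 over 180 pairs with different numbers (25 above 0.1). Alternatives were DESeq2 1.42.0, RLE size factors, no filter, only the groups of a contrast, the replicate block and leaving out each library; library totals and leaving out replicate 2 of all groups were added after seeing the data. The p-values measure the spread between replicates of 1 cell line.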

Additional observations from a re-analysis of the deposited data

Results flagged for a closer look

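For each of the 9 genes, the 4 libraries of each of the 6 groups were searched for a library far from the others (Dixon's test at 95%), 54 sets in all, of which 5 were marked; chance alone marks about 1 in 20. CFI in PD0325901 replicate 1 was at 0.506 CPM, from 27 counts, with the nearest library at 0.315 CPM. CFI in replicate 2 of PI103 plus oxozeaenol was at 0.735 CPM, with the nearest at 0.445 CPM. CD46 in replicate 4 of PI103 plus oxozeaenol was at 522 CPM, with the nearest at 424 CPM. CD55 in oxozeaenol replicate 2 was at 1070 CPM, with the nearest at 855 CPM. CD59 in control replicate 4 was at 249 CPM, with the nearest at 234 CPM.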

How the results depend on the processing

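Counts of called genes among the 8 tested kept within 1.5 times their value under the alternatives, apart from these. PI103 plus PD0325901 against PD0325901 (1 gene) gave 2 with DESeq2, 2 with the replicate block, 0 without the filter, 0 with RLE size factors and 0 to 1 with libraries left out. The same combination against the mean of its agents (4 genes) gave 2 when only the groups of the contrast were fitted and 2 to 4 with libraries left out, and against PI103 plus oxozeaenol (1 gene) it gave 2 with the replicate block and 0 to 2 with libraries left out. PD0325901 against oxozeaenol (2 genes) gave 1 without the filter, 1 with only the groups of the contrast and 1 to 3 with libraries left out. The cause was not tested.

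Directions reversed only where nothing was called. C4BPB with oxozeaenol (-0.12) was 0.0019 without control replicate 4 and 0.015 without replicate 2 of all groups, in a range from -0.29 with libraries left out. CD46 with PD0325901 (-0.07) was 0.012 with library totals, 0.039 without its replicate 2 and 0.082 without replicate 2 of all groups, in a range from -0.17. CD46 with PI103 (0.01) was -0.014 without the filter, -0.038 and -0.00995 without control replicate 1 or 3 and -0.035 without PI103 replicate 4. CD46 with PI103 plus PD0325901 (0.05) was -0.056 without its replicate 4 and up to 0.17 otherwise, and CFI with PI103 was -0.019 without PI103 replicate 2 and up to 1.34 otherwise. Of the values recomputed with libraries left out, 1177 kept direction and call, 64 lost a call, 11 gained one and 9 reversed; with all libraries the numbers were 785, 13, 16 and 2. The block changed no call beyond those given with the results. Library totals moved the median of all genes by 0.13 in PI103 plus PD0325901 against control and by under 0.1 elsewhere. C3, C1S and CFI rest on few counts in control, which limits their precision.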

Other observations

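C4BPB and CD46 were mostly highest in the same batch across treatments. C4BPB was highest in batch 4 in 6 of 6 groups, and CD46 in 5 of 6. CD55 was highest in batch 1 in 3 groups, batch 2 in 2 and batch 4 in 1, and CD59 in batches 1, 2, 3 and 4 in 1, 1, 2 and 2 groups. C1R was highest in batch 2 in 4 of 6 groups and lowest in batch 4 in 4 of 6. With group means removed, C4BPB and CD46 varied together over the 24 libraries (r = 0.839), and C1R varied against CD46 (r = -0.741). CFB was lowest in batch 2 in 3 of 6 groups, at 0.279 CPM in control, 1.82 with PI103 and 2.72 with oxozeaenol. In the PD0325901 groups CFB was highest in batch 2, with 10.3 CPM for the single agent and 33.3 CPM for the combination with PI103. In the same libraries C1S was at 1.10 and 0.874 CPM, its highest values in those groups.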
